A study of Mus musculus with 4 samples.

Results

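The 49 genes described here are those whose gene name on the array begins with Psma to Psmg followed by a number, the naming scheme of the proteasome. They were read by 63 probes, each a designed 60-base DNA oligonucleotide, out of 55681 probes for 22563 named genes. They divide by role into the 20S core alpha ring (8 genes, Psma1 to Psma8), the constitutive beta ring (7, Psmb1 to Psmb7), inducible and thymic beta subunits (4, Psmb8 to Psmb11) and the 19S ATPases (6, Psmc1 to Psmc6). The others are the 19S non-ATPase subunits (11), activators and an inhibitor of the core (5), assembly chaperones (7) and Psmc3ip. Psmc3ip takes its name from binding Psmc3, works in meiotic recombination and is not a proteasome subunit, so the name rule took in 1 gene that does not belong to the complex.

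The proteasome degrades proteins that carry ubiquitin chains. Its barrel-shaped 20S core holds the peptidase sites on the inner beta rings (Psmb5, Psmb6 and Psmb7), and the 19S cap recognises, unfolds and threads the substrate with its ring of ATPases. In blood and immune cells Psmb8, Psmb9 and Psmb10 can replace the 3 constitutive catalytic subunits to form the immunoproteasome, which favours peptides that fit MHC class I. Transcription of the subunit genes is coordinated by Nfe2l1, a factor that binds antioxidant response elements, and blood stem cells are known for low protein synthesis and sensitivity to misfolded protein.

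RNA came from LSK cells (Lin-, Sca-1+ and c-Kit+), the stem and multipotent progenitor fraction, sorted from the bone marrow of lethally irradiated mice reconstituted with E14.5 fetal liver cells, with C57B6 given as the strain of every group. The 4 donor genotypes were TET2KD (a knock-down of TET2, cells taken 10 weeks after transplantation), JAK2V617F (a transgene with the activating kinase mutation, 16 weeks), the double mutant with both lesions (13 weeks) and WT (16 weeks). The design text gives 5 mice for each genotype, and each genotype had 1 array. Whether the mice were pooled, how the knock-down was made, which promoter drives the transgene and whether host cells that survived irradiation were gated out are not given in the sources used here. TET2KD and JAK2V617F, alone or together, were thus set against WT and against each other, with weeks after transplantation differing in every pair but JAK2V617F and WT.

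The arrays shared 1 slide and 1 scan session. Levels are given as the scaled log2 signal, the log2 of the background-subtracted signal over the 75th percentile of that array, which was 120 in TET2KD, 130 in JAK2V617F, 144 in the double mutant and 128 in WT. Between 49.4% and 54.7% of spots were well above background and none was saturated. Tet2 itself was read by 2 probes above background in all 4 arrays. They gave 27.3% and 56.3% of WT in TET2KD, and 60.3% and 61.6% in the double mutant. In JAK2V617F, which carries no knock-down, they gave 73.1% and 105%. The 1 other Tet2 probe was detected in the double mutant alone. Kit, Ly6a (which encodes Sca-1), Cd34, Flt3 and Meis1 were read for the labels' cell type. All 5 were above background on every array. Detection alone cannot tell LSK cells from other marrow, since 8 of 8 granulocyte and monocyte progenitor markers were also detected on every array. Against WT, the median log2 difference of the 5 LSK genes was -1.02 for JAK2V617F, with 3 at least 2-fold lower and 1 higher. The double mutant gave -0.78, with 2 lower and none higher, and TET2KD gave -0.37, with none lower and 1 higher. Markers of granulocyte and monocyte progenitors (8 genes) had a summed scaled signal of 81.4 in TET2KD, 169 in JAK2V617F, 189 in the double mutant and 36.9 in WT.

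The oligonucleotides fix what each value reads, so those behind the results are shown first. Psmb5 and its inducible partner Psmb8 are paralogs, and 1 probe of each is shown to tell how far the pair can be read apart. In their best alignment without gaps these probes overlap by 50 bases, of which 31 are identical (62%) and are written in capitals. Whether either probe also reads the other transcript was not tested.
Psmb5 probe (chr14:55233161-55233220, mm9, - strand): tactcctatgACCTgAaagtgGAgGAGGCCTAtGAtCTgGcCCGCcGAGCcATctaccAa
Psmb8 probe (chr17:34337771-34337830, mm9, + strand): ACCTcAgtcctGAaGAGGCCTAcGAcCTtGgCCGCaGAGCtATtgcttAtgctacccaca
Psma4, an alpha-ring subunit, and Psmd12, a scaffold subunit of the 19S lid, have 2 probes each that read different parts of the transcript and are shown because they disagree in places. Psmd13 and Psmd11, also lid subunits, have 1 probe each and carried some of the larger differences. Coordinates that span over 60 bases belong to a probe split over a gap in the genome, as at an exon junction.
Psma4 probe 1 (chr9:54802741-54804087, mm9, + strand): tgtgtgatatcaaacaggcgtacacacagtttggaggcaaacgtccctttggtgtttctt
Psma4 probe 2 (chr9:54804685-54805444, mm9, + strand): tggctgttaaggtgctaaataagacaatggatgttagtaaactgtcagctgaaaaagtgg
Psmd12 probe 1 (chr11:107347092-107347728, mm9, + strand): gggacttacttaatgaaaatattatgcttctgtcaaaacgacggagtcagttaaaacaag
Psmd12 probe 2 (chr11:107358963-107359022, mm9, + strand): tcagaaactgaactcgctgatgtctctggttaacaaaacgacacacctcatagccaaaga
Psmd13 probe (chr7:148084248-148084307, mm9, + strand): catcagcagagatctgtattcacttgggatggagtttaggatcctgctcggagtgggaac
Psmd11 probe (chr11:80283406-80283920, mm9, + strand): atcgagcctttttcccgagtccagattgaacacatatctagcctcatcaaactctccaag

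Of the 63 probes, 55 were well above background on all 4 arrays, 6 on some arrays and 2 on none. The 2 undetected probes read Psmb11, the thymus-specific beta subunit, and 1 of 2 stretches of Psmb9, whose other probe was detected on all 4 arrays. Psmb11 therefore has no value here, and 48 genes had a level. Most genes (36) have 1 probe, 12 have 2, and Psme2b has 3.

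With 1 array per genotype, the only direct error is that of repeated spots. Psme1, the alpha subunit of the PA28 activator, was printed as 10 spots on each array. Their scaled log2 signals averaged 5.27 ± 0.05 in TET2KD, 5.62 ± 0.04 in JAK2V617F, 5.67 ± 0.06 in the double mutant and 5.55 ± 0.05 in WT (SD, n = 10 spots). The spots of TET2KD (5.20 to 5.34) lay below those of all other arrays, and the other 3 arrays overlapped. Over the 193 to 227 probes per array with several repeated spots well above background, the SD of a spot was 0.15 to 0.16 on every array. This gives a difference of 2 arrays an SD of about 0.22, in which dim probes had no part. This error leaves out sorting, RNA amplification and animals, so no p-value is attached to a difference of 2 arrays, and "higher" and "lower" describe these arrays.

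The proteasome genes were lowest as a group in TET2KD and highest in the 2 genotypes that carry JAK2V617F. Of the 48 genes, 29 had their lowest value in TET2KD, against 6 in JAK2V617F, 2 in the double mutant and 11 in WT. Psma8, detected on 1 array, is placed by background alone, and without it the count for JAK2V617F is 5 of 47. The shares for TET2KD were 60.4% of these genes and 20.8% of all genes, or 31.4% of bright genes, those with a mean signal above the 75th percentile. JAK2V617F held the highest value for 26 (54.2%, against 23.7% of all genes and 26.5% of bright genes). Measured from its own mean over the arrays, the median gene was at -0.39 in TET2KD, 0.30 in JAK2V617F, 0.20 in the double mutant and -0.07 in WT.

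**Figure D1:**
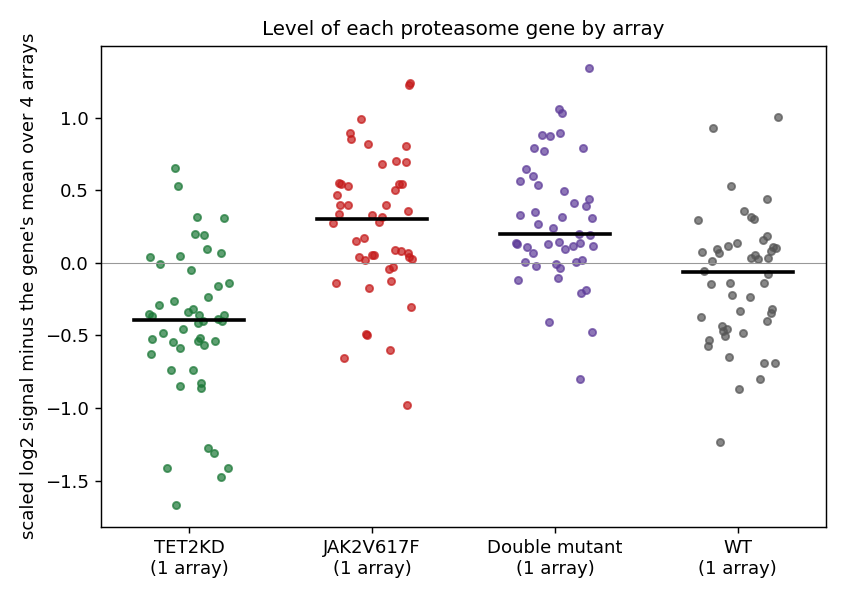
Each point is 1 of 48 proteasome genes, placed by its scaled log2 signal minus its own mean over the 4 arrays (vertical axis, log2) on the array of each genotype, with the median as a bar. Medians run from -0.39 in TET2KD to 0.30 in JAK2V617F, and 10 genes in TET2KD lie above their own mean, against 37 in JAK2V617F, 38 in the double mutant and 23 in WT.

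In TET2KD against WT, 32 of 47 proteasome genes were lower and 15 higher, with a median log2 difference of -0.27 beside -0.05 for all 14317 genes compared and -0.08 for the bright ones. Counting differences of 2-fold or more, 6 were lower and 1 higher, while 17.5% of all genes were at least 2-fold lower and 15.9% higher. The members' shares were 12.8% and 2.13%, so large downward differences were no more frequent than the background. Over 2 SD of spot error, 20 were lower (42.6%, with 33.1% of all genes) and 7 higher (14.9%, with 30.7%).

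The alpha ring was lower for 6 of 7 detected genes in TET2KD against WT, 3 of them by over 2 SD of spot error. Psma5 had the largest difference, with a scaled log2 signal of 1.72 in TET2KD against 3.55 in WT, 3.57-fold lower, while JAK2V617F (3.57) and the double mutant (3.26) were near WT. Psma7 was at 4.96 in TET2KD against 5.79 in WT, and Psma2 at 3.29 against 4.12. Psma1, Psma3 and Psma6 were also lower, by 1.11-fold to 1.31-fold. With Psma2 they ran in 1 order over the arrays, lowest in TET2KD, then WT, the double mutant and JAK2V617F, as did the beta genes Psmb1 and Psmb2. Psma1, for example, was at 3.94 in TET2KD, 5.01 in JAK2V617F, 4.56 in the double mutant and 4.32 in WT. Psma4 was the exception at 1.66-fold higher, and its probes did not share this: probe 1 was higher by 1.60 on the log2 scale and probe 2 gave -0.14.

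In the constitutive beta ring 5 of 7 genes were lower in TET2KD, 3 of them by over 2 SD of spot error. The largest difference was that of Psmb7, which carries the trypsin-like site. Psmb7 was at 2.67 in TET2KD, 4.28 in JAK2V617F, 4.44 in the double mutant and 4.39 in WT, so TET2KD stood apart from 3 close arrays and was 3.28-fold below WT. The largest difference the other way was that of Psmb3, a structural subunit, at 3.12 in TET2KD against 2.42 in WT. Of the 3 detected inducible subunits Psmb10 was 1.48-fold and Psmb8 1.42-fold lower, and Psmb9 differed by 1.07-fold, within spot error.

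Among 19S genes, 4 of 6 ATPases and 6 of 11 non-ATPase subunits were lower in TET2KD, 4 of each by over 2 SD of spot error. The ATPase Psmc1 was 1.60-fold lower, and the largest ATPase difference upward was 1.13-fold for Psmc3, whose probes gave 0.72 and -0.37 on the log2 scale. Psmd13 was at 0.01 in TET2KD, 0.94 in JAK2V617F, 2.32 in the double mutant and 2.43 in WT, 5.33-fold lower in TET2KD than in WT. Psmd2 and Psmd4, a ubiquitin receptor, were 1.80-fold and 1.68-fold lower. Psmd6, a lid subunit, was flat, at 1.38 in TET2KD, 1.36 in JAK2V617F, 1.39 in the double mutant and 1.42 in WT. Psmd11 was the highest of the non-ATPase group relative to WT at 1.89-fold. Of the activators, Psme2b was lowest relative to WT (1.43-fold lower) and Psme4, the nuclear activator PA200, highest (1.79-fold higher). Psme2b is a processed copy of Psme2. Psme2 was not analysed here, and whether these probes read it was not tested.

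Large TET2KD differences also lay among the assembly chaperones, which help build the core and the cap. Psmg4 was at 1.05 in TET2KD, 2.16 in JAK2V617F, 3.26 in the double mutant and 3.39 in WT, which made it 5.06-fold lower in TET2KD than in WT. Psmg1 was at -1.001 in TET2KD, 1.90 in JAK2V617F, 1.44 in the double mutant and 0.32 in WT. On both of its probes it was lower in TET2KD and higher in the genotypes with JAK2V617F. Psmg3 was not well above background in TET2KD and was at least 3.57-fold lower than in WT. Psmd9, a 19S chaperone, went the other way at 3.38-fold higher, on the 1 probe detected in both arrays.

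**Figure D2:**
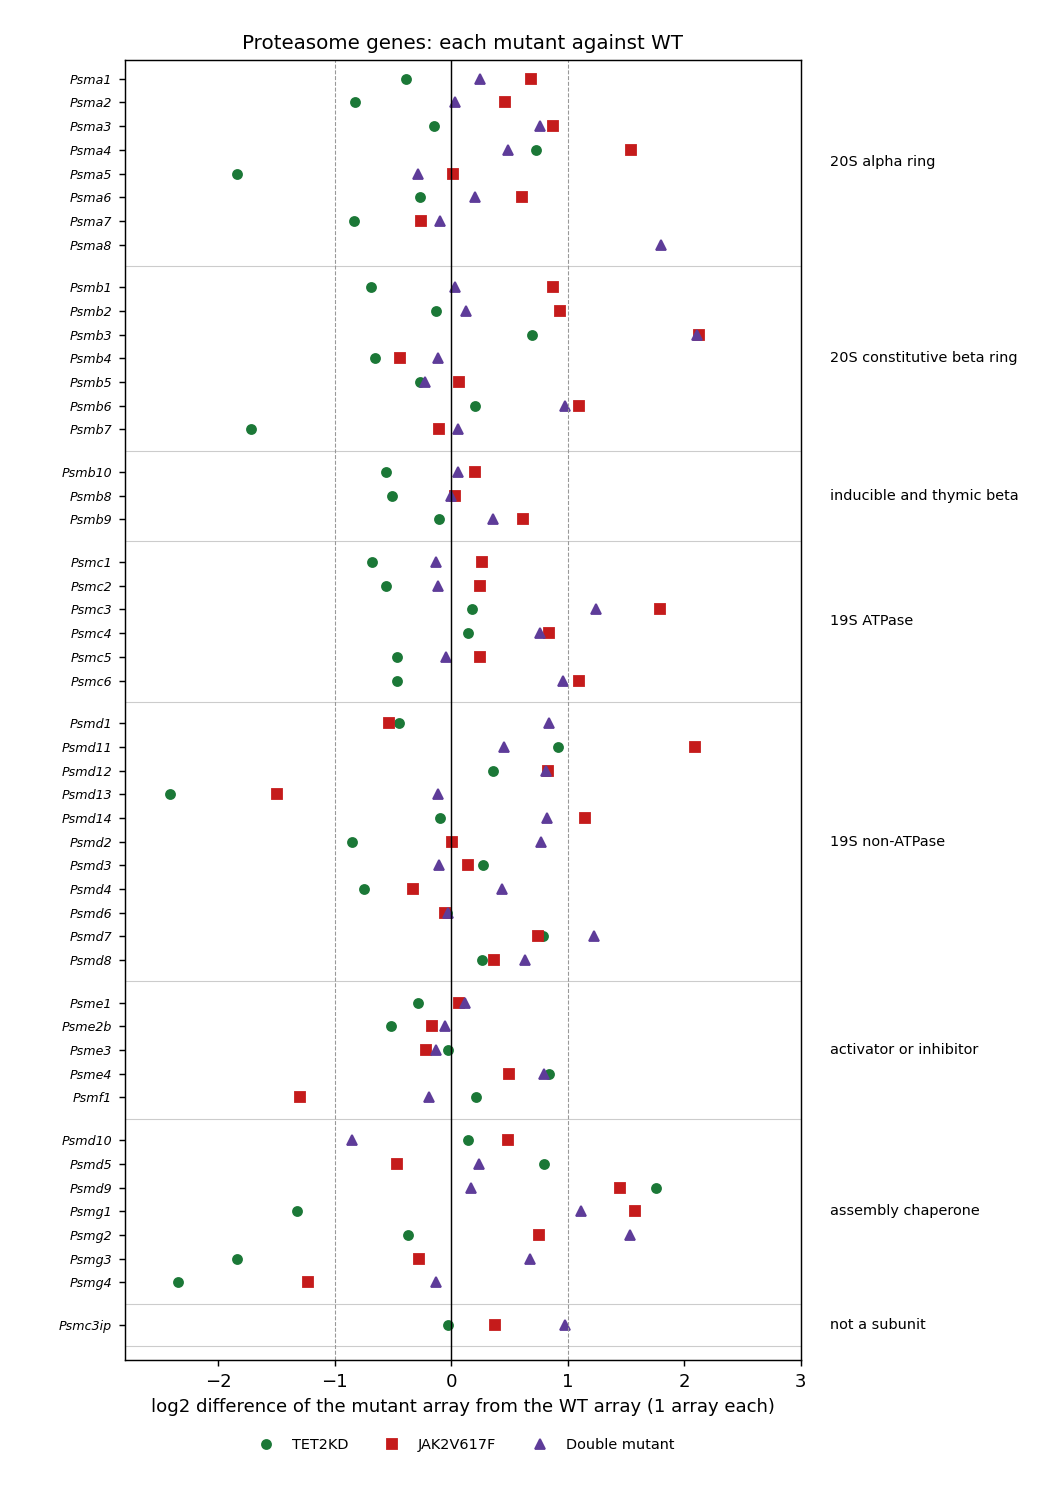
Each row is a proteasome gene, grouped by role, and the horizontal axis is the log2 difference of the mutant array from WT for TET2KD (circles), JAK2V617F (squares) and the double mutant (triangles), with dashed lines at 2-fold. Psma8 in the double mutant and Psmg3 in TET2KD are lower bounds of the difference. Psmd10 in every mutant, Psmd9 in JAK2V617F and the double mutant, and Psmg2 in TET2KD average probes that include values below background. In TET2KD 32 of 47 genes lie left of 0, and in JAK2V617F 34 of 47 lie right of it.

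In JAK2V617F against WT, the only pair taken at the same 16 weeks, 34 of 47 genes were higher and 13 lower, with a median of 0.37 beside -0.01 over 14898 genes. At least 2-fold higher were 9 (19.1%, with 15.5% of all genes) and at least 2-fold lower 3 (6.38%, with 15.7%). The 2-fold share thus lies near that of all genes on the higher side. Among bright genes 702 of 6090 were at least 2-fold higher and 653 lower, smaller shares than those of all genes. By over 2 SD of spot error 22 genes were higher (46.8%, with 30.2% of all genes) and 5 lower (10.6%, with 30.8%). Comparisons with WT share the WT array and are not independent of each other.

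The highest medians lay in the 20S core and the ATPase ring. In the alpha ring 6 of 7 were higher (median 0.61), with Psma4 at 2.17 in JAK2V617F against 0.62 in WT. Its probes agreed here, at 1.53 and 1.56 on the log2 scale. The constitutive beta ring had a median of 0.87. Psmb3 was at 4.55 in JAK2V617F and 4.53 in the double mutant, against 3.12 in TET2KD and 2.42 in WT, or 4.36-fold and 4.31-fold above WT. Psmb6, which carries the caspase-like site, was at 3.49 in JAK2V617F and 3.37 in the double mutant, with 2.59 in TET2KD and 2.39 in WT. Psmb4 was the lowest relative to WT, 1.35-fold lower. All 6 ATPase genes were higher, from 1.19-fold for Psmc5 and Psmc2 to 3.46-fold for Psmc3, and 3 of them by over 2 SD of spot error. Both probes of Psmc3 were higher, at 2.78 and 0.80 on the log2 scale. Psmc4 was at 2.51 in TET2KD, 3.20 in JAK2V617F, 3.13 in the double mutant and 2.36 in WT, higher with the kinase mutation than without it.

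The 3 catalytic pairs were compared next. Psmb5, which carries the chymotrypsin-like site, was at 2.88 in TET2KD, 3.21 in JAK2V617F, 2.92 in the double mutant and 3.15 in WT, and its partner Psmb8 at 3.62, 4.16, 4.12 and 4.13 in the same order. Neither differed between JAK2V617F and WT beyond spot error, at 1.05-fold higher on average (probes at 0.22 and -0.09) and 1.02-fold. In the Psmb6 and Psmb9 pair both genes were higher in JAK2V617F, 2.14-fold and 1.54-fold. In the Psmb7 and Psmb10 pair the differences from WT were -0.10 and 0.21 on the log2 scale. The median over the 3 detected inducible genes was 0.21 in JAK2V617F and 0.05 in the double mutant.

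Non-ATPase subunits were mixed in JAK2V617F, with 7 of 11 higher and a median of 0.15. Psmd11 was 4.27-fold higher, at 2.34 in JAK2V617F against 0.24 in WT, and Psmd14, the deubiquitinase of the lid, was 2.22-fold higher. Psmd13 was 2.81-fold lower. Psmd8 and Psmd3 were within 1.29-fold of WT, and Psmd2, at 1.97 in TET2KD, 2.82 in JAK2V617F, 3.59 in the double mutant and 2.81 in WT, did not differ from WT beyond spot error. Psmd12 averaged 1.78-fold higher, but its probes, 11235 bases apart in the genome, gave -0.05 and 1.71 on the log2 scale. Among activators Psme1 and Psme2b were within 1.12-fold of WT (the 3 Psme2b probes gave 0.44, -0.06 and -0.88), Psme4 was 1.41-fold higher and Psmf1, an inhibitor of the core, 2.45-fold lower. Psme3 was within 1.16-fold on every mutant array. Its probe holds a 12-base run of GT repeats and 15 GT pairs in all, and whether it reads other transcripts was not tested.

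Chaperones ran from Psmg1, 2.99-fold higher in JAK2V617F than in WT, to Psmg4, 2.35-fold lower. Psmd5, which holds ATPases of the base before assembly, was at 1.44 in TET2KD, 0.18 in JAK2V617F, 0.88 in the double mutant and 0.64 in WT. Probes disagreed for 2 chaperones of the 19S base. For Psmd10, also known as gankyrin, the probes gave 2.27 (WT below background) and -1.29 on the log2 scale. For Psmd9 they gave 2.94 (WT below background) and -0.04, so the gene averages of 1.40-fold and 2.73-fold describe neither stretch. Psmc3ip, which is no subunit, was 1.30-fold higher.

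In the double mutant against WT, 32 of 48 genes were higher and 16 lower, with a median of 0.22 beside -0.01 over 14818 genes. At least 2-fold higher were 6 (12.5%, with 15.3% of all genes) and at least 2-fold lower none of 48 (16.6% of all genes). By over 2 SD of spot error 20 of 48 were higher, beside 4444 of 14818 genes, and 1 lower, beside 4610 genes. Among the groups of subunits the non-ATPase genes had the highest median at 0.63, with 8 of 11 higher and Psmd7, a lid scaffold, at 5.06 in TET2KD, 5.03 in JAK2V617F, 5.50 in the double mutant and 4.28 in WT. WT was the lowest array for Psmd7 by 0.75, and the double mutant was 2.34-fold above it. Psmb3 was 4.31-fold higher in the constitutive beta ring and Psmc3 2.36-fold among the ATPases. Psmb5 was the lowest constitutive beta gene relative to WT and Psma5 the lowest alpha gene, 1.17-fold and 1.22-fold lower, both under 2 SD of spot error. For Psmc1 the probes gave 0.17 and -0.42, and for Psme2b 0.78, -0.46 and -0.47.

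The remaining extremes of the double mutant were again chaperones. Psmg2 was 2.91-fold higher than in WT, although its neighbouring probes gave 0.25 and 2.83. Psmd10 was 1.80-fold lower as an average of probes at 0.56 (WT below background) and -2.27. Psmd9 was 1.13-fold higher as an average of 1.18 (WT below background) and -0.83 (double mutant below background), so it averages bounds in opposite directions. Psma8, the testis-specific alpha subunit, was detected in the double mutant alone, where it was at least 3.47-fold higher than in WT. In the other 3 genotypes it was not well above background.

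**Figure D3:**
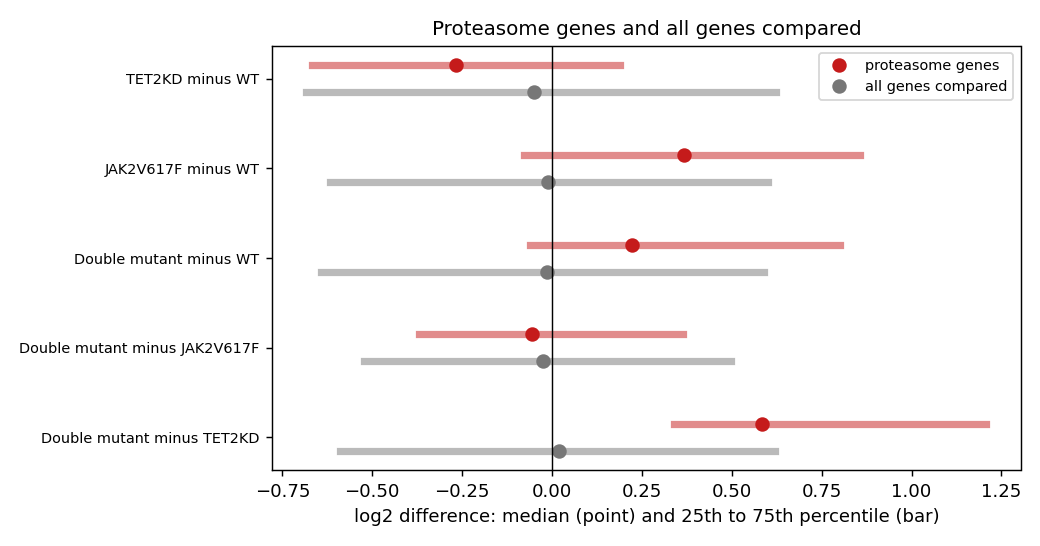
Points are the median log2 difference and bars the 25th to 75th percentile, for the proteasome genes (red) and all genes compared (grey), in 5 comparisons of 2 arrays each. The proteasome median is -0.27, 0.37, 0.22, -0.06 and 0.58 from top to bottom, and that of all genes stays between -0.05 and 0.02.

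The double mutant was next set against each single lesion. Against TET2KD, which asks what JAK2V617F adds to the knock-down, 39 of 48 genes were higher and 9 lower, with a median of 0.58 beside 0.02 over 14566 genes. This pair shares the TET2KD array with TET2KD against WT, so a low signal on that array enters both. At least 2-fold higher were 15 (31.2%, with 15.8% of all genes) and none of 48 was 2-fold lower (15.5% of all genes). Past 2 SD of spot error lay 33 upward (68.8%, with 31.4% of all genes) and 4 downward (8.33%, with 29.4%). The 15 include Psma8 and Psmg3, which were not well above background in TET2KD, and Psmc3ip. Every detected constitutive beta gene (7 of 7), inducible beta gene (3 of 3) and ATPase (6 of 6) was higher, and so were 6 of the 7 alpha genes detected on both arrays. Higher by over 2 SD of spot error were 5 constitutive beta genes, 3 inducible beta genes, 5 ATPases and, counting Psma8, 7 of 8 alpha genes. The probes of Psmb5 gave -0.03 and 0.11 on the log2 scale. Psmb7 was 3.41-fold higher, Psma5 2.92-fold, Psmd2, the largest base subunit with Psmd1, 3.07-fold, and Psmd1 itself 2.45-fold. In JAK2V617F against WT these genes gave -0.10, 0.02, 0.01 and -0.53 on the log2 scale in the same order. Psmg3 was at least 5.69-fold and Psmg1 5.42-fold higher. Psmd10 was 1.997-fold lower, just short of the threshold. The median of the 5 activators and inhibitor was -0.04.

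Against JAK2V617F, which asks what the knock-down adds, the double mutant showed little shift, with 21 of 48 genes higher, 27 lower and a median of -0.06 beside -0.02. At least 2-fold higher were 5 (10.4%, with 12.3% of all genes) and lower 4 (8.33%, with 12.7%). Past 2 SD of spot error lay 12 of 48 upward (26.9% of all genes) and 8 downward (16.7%, with 28.2%). All 6 ATPase genes were lower, by 1.05-fold to 1.47-fold, but only 1 by over 2 SD of spot error. The median of the non-ATPase group was 0.26. Psmd1 was at 0.61 in JAK2V617F and 1.99 in the double mutant, and Psmd11 at 2.34 in JAK2V617F and 0.70 in the double mutant, which gave 2.60-fold higher and 3.11-fold lower. Also 2-fold higher were Psmd13, Psmf1, Psmg4 and Psma8, and 2-fold lower Psma4, Psmd9 and Psmd10. The pairs of the double mutant with the single lesions share its array, and each also shares the array of that lesion with its comparison to WT.

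The JAK2V617F difference was measured without the knock-down (JAK2V617F against WT) and with it (double mutant against TET2KD) on pairs that share no array. Of 47 genes, 28 were higher in both, 3 lower in both, 6 higher then lower and 10 lower then higher. Higher in both were thus 59.6%, beside 27.6% of 13376 genes and 29.7% of the bright ones. With 34 of 47 genes higher in the first pair and 39 of 48 in the second, a large overlap follows even without agreement gene by gene. At least 2-fold higher in both were Psmb3, Psmc3, Psmc6 and Psmg1 (8.51%, beside 4.01% of all genes). Psmc6, an ATPase, was at 0.996 in JAK2V617F and 0.86 in the double mutant, against -0.56 in TET2KD and -0.10 in WT. These are the same values by which Psmc6 was picked. Across genes the 2 differences gave Pearson r = -0.15 and Spearman rho = -0.06 (47 genes, which share arrays and are not replicates).

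For the knock-down the pairs without a shared array (TET2KD against WT, double mutant against JAK2V617F) had 17 of 47 genes lower in both (36.2%, beside 27.6% of all genes and 30.8% of the bright ones) and 5 higher in both (10.6%, beside 23.9% of all genes and 20.8% of the bright ones). None of 47 was at least 2-fold lower in both, beside 375 of 13211 genes. Across genes the 2 differences gave Pearson r = -0.42 and Spearman rho = -0.20, with the same limits.

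**Figure D4:**
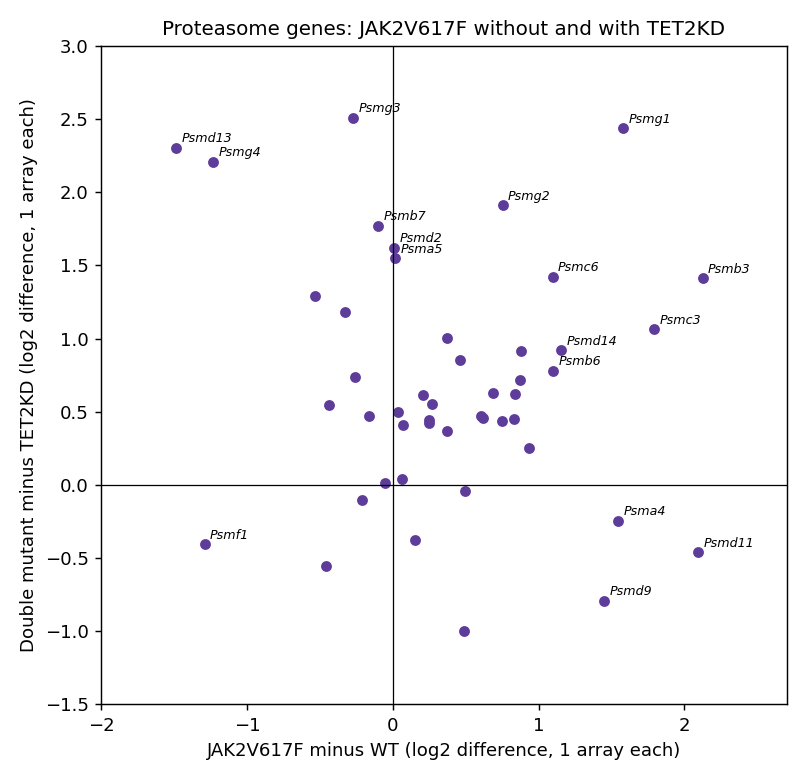
Each point is 1 of 47 proteasome genes, with the log2 difference of JAK2V617F from WT on the horizontal axis and of the double mutant from TET2KD on the vertical axis. The upper right holds 28 genes, among them Psmb3, Psmc3, Psmc6 and Psmg1, while Psmd13 and Psmg4 lie at the upper left.

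The 4 genotypes also allow a fit of additive JAK2V617F and TET2KD effects with limma, in which departure from additivity serves as the error (1 residual degree of freedom, pooled over 16086 genes). After Benjamini-Hochberg adjustment over all genes it called none of 48 proteasome genes and 0.0% of all genes for either lesion. At an unadjusted p under 0.05 the JAK2V617F effect passed upward for 4 proteasome genes (3.38% of all genes) and downward for none (3.05% of all genes), and the TET2KD effect for none upward (2.16%) or downward (2.34%). The 4 were Psmg1 (effect 2.01 ± 0.49, SE, limma adjusted p = 0.717), Psmb3 (1.77 ± 0.48, limma adjusted p = 0.717), Psmc3 (1.43 ± 0.48, limma adjusted p = 0.733) and Psmc6 (1.26 ± 0.45, limma adjusted p = 0.758). No single gene is therefore shown to differ by this test.

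Genes that serve the proteasome without a Psm name were read from separate lists. Of 18 biogenesis and recruitment genes 16 were compared in JAK2V617F, with 1 at least 2-fold higher and 4 lower (15.5% and 15.7% of all genes). Their median was 0.10 in JAK2V617F, 0.00 in TET2KD and 0.17 in the double mutant against WT. Pomp, the maturation factor of the core, was at 3.07 in TET2KD, 3.69 in JAK2V617F, 3.64 in the double mutant and 3.32 in WT. Ube3c, a proteasome-bound ubiquitin ligase gene, was 3.102-fold lower in TET2KD, 3.30-fold in JAK2V617F and 3.46-fold lower in the double mutant than in WT. The 6 ubiquitin and E1 genes had medians of -0.08 for TET2KD, -0.18 for JAK2V617F and -0.57 for the double mutant against WT, and Uba1, the main ubiquitin-activating enzyme, was 3.32-fold lower than WT in both single mutants.

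Genes listed for control of proteasome transcription were mostly higher than in WT, 10 of 12 in TET2KD, 10 in JAK2V617F and 8 for the double mutant. The shares of all genes compared that were higher were 47.6%, 49.4% and 49.4% in the same order. Of the listed genes, 6 of 12 were at least 2-fold higher in TET2KD with 1 lower (15.9% and 17.5% of all genes). In JAK2V617F 5 of 12 were 2-fold higher with none lower (15.5% and 15.7% of all genes). The double mutant had the same counts (15.3% and 16.6% of all genes). Nfe2l1 had a scaled log2 signal of -1.58 in TET2KD, -0.77 in JAK2V617F, -0.35 in the double mutant and was not well above background in WT. The mutants were thus higher by at least 2.32-fold (TET2KD), 4.06-fold (JAK2V617F) and 5.42-fold (double mutant). Nfe2l2, its relative in the oxidative stress response, was 2.37-fold, 2.31-fold and 2.78-fold higher in the same order. TET2KD had the higher Nfe2l1 signal of the pair with WT, where WT was below background, and the lower proteasome signal. Whether the 2 are related was not tested. The interferon and class I list had medians of -0.18, -0.04 and -0.05, with 2, 3 and 3 of 12 genes at least 2-fold higher and 3, 2 and 2 lower (all genes in these comparisons: 15.3% to 15.9% higher and 15.7% to 17.5% lower). Tap1, the peptide transporter next to Psmb8 and Psmb9 in the MHC, was 13.1-fold higher in JAK2V617F, against 2.18-fold in TET2KD and 2.49-fold in the double mutant, and these 3 comparisons share WT.

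Promoter windows (250 bases before to 50 after a start, RefSeq, GRCm38.p6) were held for 41 of the 49 genes, in 43 windows. The antioxidant response element was searched as TGACNNNGC on both strands and was in 6 of 43 windows (14.0%), beside 12.4% of 32851 windows of all genes. The STAT-type GAS element TTCNNNGAA was in 3 windows (6.98%, beside 8.30%), those of Psmb8, Psmd2 and Psmg1. The CCAAT box (CCAAT, either strand) was in 15 (34.9%, beside 37.4%). The shares lie near those of all windows. None of the 3 motifs contains another, though matches may overlap in a window. Psmb5 and Psmb6 are shown because both encode catalytic subunits with an antioxidant response element (capitals) close to the start, 47 and 9 bases before it. Psmb6 was 2.14-fold and Psmb5 1.05-fold higher in JAK2V617F than in WT.
Psmb5 upstream (chr14:54617996-54618245, GRCm38.p6, - strand): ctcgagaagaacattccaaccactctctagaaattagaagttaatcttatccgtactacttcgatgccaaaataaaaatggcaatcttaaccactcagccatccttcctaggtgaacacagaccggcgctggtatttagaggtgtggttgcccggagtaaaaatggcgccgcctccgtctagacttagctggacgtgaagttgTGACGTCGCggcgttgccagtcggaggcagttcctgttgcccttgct
Psmb6 upstream (chr11:70525107-70525356, GRCm38.p6, + strand): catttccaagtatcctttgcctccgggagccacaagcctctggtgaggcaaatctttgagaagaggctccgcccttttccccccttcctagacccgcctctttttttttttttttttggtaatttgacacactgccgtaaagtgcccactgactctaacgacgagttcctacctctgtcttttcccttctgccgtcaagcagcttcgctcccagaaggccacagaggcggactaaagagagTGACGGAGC

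Other values moved with the genotypes beside these results. Beside the granulocyte and monocyte progenitor sums given above, in which 8 of 8 genes were above background on every array, the mature neutrophil sum (8 genes) was 96.3 in TET2KD, 21.5 in JAK2V617F, 66.8 in the double mutant and 65.3 in WT. Erythroid markers (5 measured) summed to 23.4, 0.88, 10.67 and 1.72 in the same order, and in WT only 2 of the 5 were above background. The LSK list summed to 54.2, 49.1, 33.9 and 64.4. Monocyte and dendritic sums ran from 9.38 to 25.02 over the arrays, B and plasma from 6.92 to 12.7, T and NK from 7.61 to 12.8 and megakaryocyte from 2.48 to 8.80. Their part in the proteasome differences was not tested, and in bulk RNA fewer cells of a type and less RNA per cell cannot be told apart.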

How the data were processed

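Total RNA of sorted LSK cells was amplified (NuGEN Ovation Pico) and Cy3-labelled for a 1-colour Agilent array, per the labels' protocols. The deposited intensity values are background-subtracted and detrended within each array by Agilent's Feature Extraction 10.7.3.1, per the file headers, with probe coordinates in mm9. The authors' deposited series matrix holds log2 values. For 55249 probes with 1 spot each column differed from the log2 processed signal by 1 constant, within a tolerance of 0.001. Its scale is thus known and genes are not centred (column medians -2.63 for TET2KD, -2.60 for JAK2V617F, -2.60 for the double mutant and -2.64 for WT).

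Signals were scaled to each array's 75th percentile, outlier spots left out (162 to 199 per array), and spots, then probes of a gene, averaged. Of 55681 probes, an accession named 28026, a symbol 3418 and a synonym 295 through RefSeq (GRCm38.p6, names only), and 23942 had no gene. A gene was compared where a probe was well above background on either array, with a dim side set to the lowest signal well above background or its own if higher, which makes the fold "at least". Limma 3.58.1 gave the additive fit. The steps were tested on simulated data. Alternatives were the background correction, the scaling, the filter on dim probes, the probe rule, the deposited matrix and a 3-fold threshold. The number of arrays limits the precision, and the limma p-values take departure from additivity as their only error. The members, lists and rules were chosen with earlier results of these data known. Named genes were the catalytic pairs, PA28 genes, the largest difference each way per role and mutant, and members whose probes differ in sign.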

Additional observations from a re-analysis of the deposited data

Results flagged for a closer look

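Some proteasome genes differed at least 2-fold one way on 1 background and at least 2-fold the other way on the other, and the difference between backgrounds was not tested, since each side is 1 array against 1. This held for 2 of 47 proteasome genes (4.26%, beside 5.11% of all genes) with JAK2V617F and 3 of 47 (6.38%, beside 5.34%) with the knock-down, shares near those of all genes. For JAK2V617F the log2 difference was -1.49 for Psmd13 without the knock-down and 2.30 with it, and -1.23 and 2.21 for Psmg4. For the knock-down it was -2.41 without JAK2V617F and 1.38 with it for Psmd13, and -2.34 and 1.10 for Psmg4. Both genes have 1 probe, and on both the double mutant lay close to WT (log2 differences of -0.11 and -0.13) while TET2KD and JAK2V617F were lower. Psmd9 was at 1.76 for the knock-down without JAK2V617F, on 1 probe, and at -1.28 with it, averaged over 2 probes of which 1 was below background in the double mutant. On the 1 probe read in both comparisons the values were 1.76 and -0.79, the second short of 2-fold and a bound, as the double mutant was below background there.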

How the results depend on the processing

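No paired analysis was possible because each genotype has 1 array, and for the same reason no replicate could be left out. Of 154 recomputed values, 137 were classed as close to the value reported and 17 as moved. Most of the 154 are counts of genes, which have no direction, and the limma counts were 0 throughout. Only the medians could reverse, and each kept its sign. The number classed as close depends on the tolerance chosen, so it does not measure how stable the medians are, and their ranges are given instead. Medians of the proteasome genes ran from -0.29 to -0.18 in TET2KD against WT, 0.25 to 0.38 in JAK2V617F against WT, 0.19 to 0.26 in the double mutant against WT, -0.09 to -0.01 against JAK2V617F and 0.50 to 0.63 against TET2KD. The number of genes higher with JAK2V617F on both backgrounds, recomputed after seeing the data, ran from 25 (cyclic loess) to 30 (no filter on dim probes, and the brightest probe). The additive limma fit called 0 proteasome genes under all 8 alternatives, with 3 to 10 at an unadjusted p under 0.05 for JAK2V617F and 0 for TET2KD. With a 3-fold threshold the counts were 3 higher and 0 lower in JAK2V617F against WT, 2 higher in the double mutant against WT, 7 higher against TET2KD, and 1 higher and 1 lower against JAK2V617F. With normexp they were 0 higher in TET2KD against WT, 3 higher in the double mutant against WT, and 3 higher and 1 lower in the double mutant against JAK2V617F. With the brightest probe 2 were higher in TET2KD against WT and 1 lower in the double mutant against WT, as with only probes above background on both arrays (1). The double mutant had 1 gene lower than TET2KD with quantile scaling, median scaling, cyclic loess and the brightest probe, where none was counted. In that comparison Psmd10 lay just short of 2-fold lower, at -0.998 on the log2 scale as a gene average and at -1.84 on its brighter probe. The cause of the moved counts was not tested.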
